A study of Mus musculus with 6 samples.

Results

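Genes of the ATP-binding cassette (ABC) family were taken as all deposited gene entries whose symbol starts with Abc, a subfamily letter from a to g and a number. This gave 50 genes of 22958 entries. Expression was measured by RNA sequencing of polyadenylated RNA from brain endothelial cells of mouse embryos at stage E11.5, sorted as positive for CD31 (PECAM1). Axin1 overexpression was represented by 3 libraries, with the genotype given as Cdhrs5CreERT2:R26Axin1IL+/-. The controls were 3 libraries with wildtype Axin1, given as Cdhrs5CreERT2:R26Axin1IL-/-. Both groups carried the tamoxifen-inducible Cre, came from mothers given tamoxifen at E9.5, and shared the strain background C57BL/6 x 129/Sv. In the labels the libraries of each group are biological replicates, with no litter, sex or pool named, so p-values measure the spread between these libraries. Replicates 1 and 2 share a number between the groups in their titles, and the labels do not say what it stands for.

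ABC proteins bind and hydrolyse ATP through a conserved cassette, and most use this energy to move lipids, drugs, conjugates, peptides or metal compounds across a membrane. At the blood-brain barrier, P-glycoprotein, encoded in rodents by Abcb1a and Abcb1b, and the breast cancer resistance protein, encoded by Abcg2, sit on the blood-facing side of the endothelium and pump many drugs back into the blood. Barrier properties of brain endothelium are known to depend on Wnt/beta-catenin signalling, and Axin1 holds together the proteins that mark beta-catenin for destruction. The series asks how expression in these cells changes when Axin1 is overexpressed.

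Library totals lay between 11633853 and 14234409 reads in the Axin1 libraries and between 10772492 and 13035808 reads in the controls. ABC genes took 0.286% to 0.2997% of the reads in Axin1 libraries and 0.285% to 0.296% in controls. Axin1 itself was at 79.8, 62.2 and 66.2 CPM (reads scaled to library size with TMM factors) in Axin1 libraries 1, 2 and 3, against 25.0, 17.6 and 20.8 CPM in controls 1, 2 and 3. The sorting marker Pecam1 was at 1182 to 1331 CPM in Axin1 libraries and 1199 to 1455 CPM in controls. Of 8 endothelial markers 0 passed edgeR's test, and DESeq2 called Cdh5. Cdh5 was at 981, 945 and 924 CPM in Axin1 libraries and 432, 502 and 846 CPM in controls, without overlap (log2 0.68, edgeR adjusted p 0.218). Eng was at 317, 324 and 311 CPM in Axin1 libraries and 183, 132 and 324 CPM in controls, so that for both genes control 3 lay apart from controls 1 and 2. Markers of other cell types differed between libraries. The summed level of 10 macrophage and microglia markers was 235, 1193 and 2546 CPM in Axin1 libraries 1, 2 and 3 and 456, 814 and 429 CPM in controls 1, 2 and 3. The 8 megakaryocyte and platelet markers summed to 511, 1703 and 2242 CPM in Axin1 libraries and 1247, 1217 and 1340 CPM in controls. All 10 and all 8 of these markers had reads in every library, and none passed in edgeR or DESeq2 or had an unadjusted edgeR p under 0.05. The 8 neural markers summed to 249 to 274 CPM in Axin1 libraries and 178 to 387 CPM in controls.

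The family was dominated by a few members. On the deposited RPKM scale, which scales reads by gene length, Abcg2 was the highest, at 219 ± 6.80 RPKM in Axin1 libraries and 243 ± 21.6 RPKM in controls (SD, n = 3 each). Abcg1, a sterol exporter, followed at 112 ± 10.5 RPKM in Axin1 libraries and 89.3 ± 11.1 RPKM in controls. The next 3 in the controls are not membrane transporters but soluble proteins, of which Abcf1 and Abce1 are known to act in translation. Abcf1 was at 83.3 ± 2.32 RPKM in Axin1 libraries and 89.1 ± 2.14 RPKM in controls, Abcf2 at 79.3 ± 15.5 RPKM in Axin1 libraries and 85.0 ± 7.29 RPKM in controls, and Abce1 at 81.8 ± 12.9 RPKM in Axin1 libraries and 74.8 ± 3.59 RPKM in controls. These 5 genes made up 70.5% to 75.1% of the summed ABC RPKM in Axin1 libraries and 71.1% to 74.3% in controls. Between libraries, RPKM per read relative to the library's common factor varied by at most 1.09-fold for the tested genes other than Abcc5 (1.42-fold), so levels of Abcc5 on this scale are uncertain. Control ranges of Abcg2 and Abcg1 did not overlap, whereas Abcg1, Abcf1, Abcf2 and Abce1 overlapped from neighbour to neighbour in the order.

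In the controls 13 genes averaged at least 10 RPKM, 13 lay between 1 and 10 RPKM, and 20 had reads but lay under 1 RPKM. Abca12, Abcb5, Abcb11 (the bile salt export pump of liver) and Abca15 had no read in any library, which allows a level of up to 0.0405 CPM over the 6 libraries (3 counts, counting error only). Abcb1a was the thirteenth gene in the control order, at 4.59 ± 0.812 RPKM in Axin1 libraries and 11.4 ± 2.83 RPKM in controls.

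**Figure D1:**
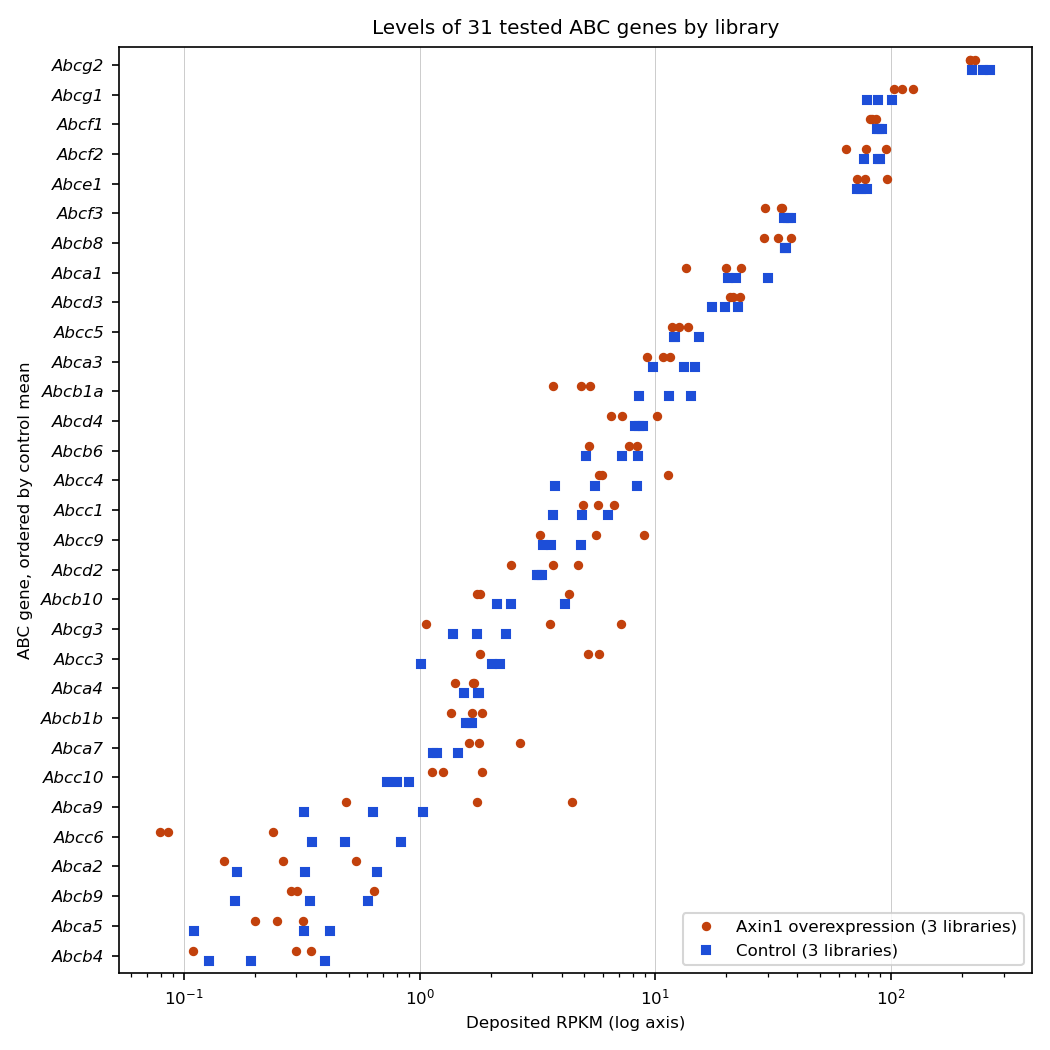
Deposited RPKM (log axis) of 31 of the 33 tested ABC genes in each of the 3 Axin1 overexpression libraries (circles) and 3 control libraries (squares), ordered by control mean. Abcg2 stands highest, with no overlap with the next gene, and for Abcb1a the 3 Axin1 libraries lie left of the 3 controls.

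Differences between groups were tested on reads, with 33 of the 50 genes passing the filter on low counts. The 17 others comprised the 4 genes without a read and 13 with at most 33 reads each over the 6 libraries (Abca6, Abca8a, Abca8b, Abca13, Abca14, Abca16, Abca17, Abcc2, Abcc8, Abcc12, Abcg4, Abcg5 and Abcg8). Of the 33, 30 reached the filter's level in all 6 libraries. Abcc6 reached it throughout only in controls, and Abcb9 throughout only in Axin1 libraries. With p-values from edgeR's quasi-likelihood fit adjusted by Benjamini-Hochberg over all 12661 tested genes, 1 ABC gene changed, Abcb1a, which fell, and 0 rose. Over all tested genes 0.845% were called, 0.49% lower and 0.355% higher, and the share of ABC genes (3.03%) rests on the single gene Abcb1a. Unadjusted edgeR p-values lay under 0.05 for 6 ABC genes (18.2%, against 17.2% of all tested genes). Groups did not overlap for 7 ABC genes (21.2%, against 23.8% of all tested genes), of which 4 were lower and 3 higher in Axin1 libraries.

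The family had no common direction. Log2 fold changes (Axin1 over control) were negative for 16 and positive for 17 of the 33 genes, and their median was 0.02, as it was over all tested genes (0.02). The log2 fold change was under 0.3 in size for 22 genes, and for 14 genes the 95% confidence interval lay within 0.6 of 0 on either side. In whole sorted populations, fewer cells of a type and less RNA per cell cannot be told apart.

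**Figure D2:**
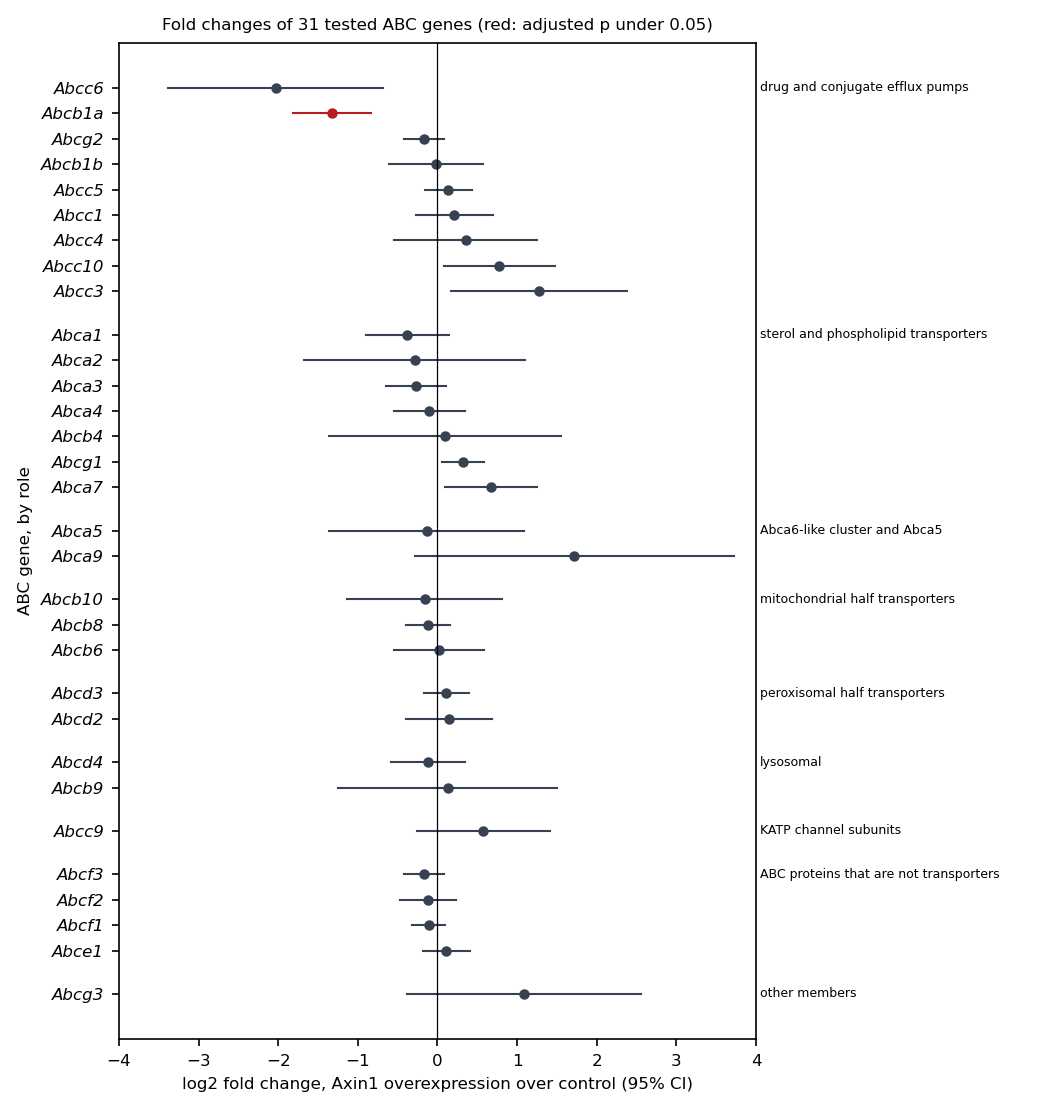
Log2 fold change (Axin1 overexpression over control) with 95% confidence interval for 31 of the 33 tested ABC genes, grouped by role, from edgeR's quasi-likelihood fit. Abcb1a (red, -1.32) is the only gene past an adjusted p of 0.05, and most estimates lie within 0.3 of 0.

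Among 10 drug and conjugate efflux pumps, 9 were tested, of which edgeR called 1 lower and 0 higher. Over all tested genes 0.845% were called. The median log2 fold change of the pumps was 0.13. An unadjusted edgeR p lay under 0.05 for 4 of the 9, against 17.2% of all tested genes. DESeq2 gave an adjusted p to 8 of them and called 2, Abcb1a lower and Abcc3 higher, against 6.17% of all genes with a DESeq2 adjusted p. Abcb1a (NM_011076) was at 15.7, 19.9 and 22.3 CPM in Axin1 libraries 1, 2 and 3, against 37.0, 59.97 and 47.8 CPM in controls 1, 2 and 3. Every Axin1 library lay below every control. The means were 19.3 ± 3.36 CPM in Axin1 libraries and 48.3 ± 11.48 CPM in controls (SD, n = 3 each), a level 2.50-fold lower with Axin1 overexpression. The log2 fold change was -1.32 (SE 0.21, 95% confidence interval -1.81 to -0.83, edgeR adjusted p 0.0432).

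The size of this fall held when single libraries were left out, but its call did not. Log2 fold changes stayed between -1.49 and -1.14 over the 6 fits that left out 1 library. The edgeR adjusted p was 0.0778, 0.156 and 0.0781 without Axin1 library 1, 2 or 3, and 0.0782, 0.199 and 0.018 without control 1, 2 or 3. Deposited RPKM gave -1.13 on the log2(RPKM + 1) scale, with a limma adjusted p of 0.0731.

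**Figure D3:**
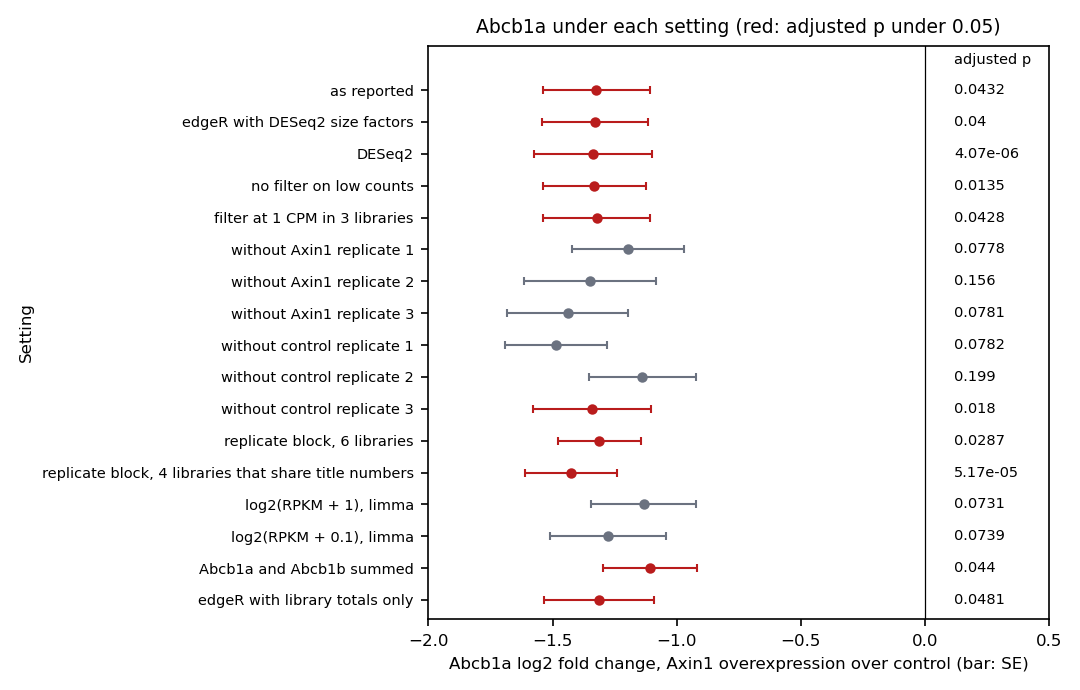
Abcb1a log2 fold change (Axin1 overexpression over control; bar, SE) under each setting, with its adjusted p at the right. Estimates lie between -1.49 and -1.11, and 9 of the 16 alternatives keep an adjusted p under 0.05 (red).

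Abcb1a and Abcb1b are neighbouring genes on chromosome 5 with closely similar coding sequence. Of the 31-base words of the Abcb1a transcript in GENCODE M21, 21.4% also occur in Abcb1b, and 24.9% of those of Abcb1b occur in Abcb1a, so reads there depend on how the authors counted multiple matches. Abcb1b (NM_011075) was at 6.15, 4.82 and 6.74 CPM in Axin1 libraries 1, 2 and 3 and at 6.21, 5.98 and 5.70 CPM in controls. Its groups overlapped, and its log2 fold change was -0.02 (95% confidence interval -0.61 to 0.58, edgeR adjusted p 0.985). There were 2.55, 4.13 and 3.31 Abcb1a reads per Abcb1b read in Axin1 libraries, against 5.96, 10.03 and 8.39 in controls. These ratios, which do not depend on normalisation, did not overlap (exact permutation p 0.1, two-sided, the smallest that 3 against 3 allows). With the reads of both genes summed, the log2 fold change was -1.11 (edgeR adjusted p 0.044).

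The 250 bases before the annotated start of each gene are shown because Abcb1a was called and its neighbour was not (RefSeq, GRCm38.p6, another build than the mm9 of the deposited counts). Capitals mark CTTTGA and CTTTGT on either strand, the core letters bound by TCF/LEF factors, the DNA-binding partners of beta-catenin. The windows are chr5:8566841-8567090 and chr5:8797897-8798146, both on the plus strand.
Abcb1a: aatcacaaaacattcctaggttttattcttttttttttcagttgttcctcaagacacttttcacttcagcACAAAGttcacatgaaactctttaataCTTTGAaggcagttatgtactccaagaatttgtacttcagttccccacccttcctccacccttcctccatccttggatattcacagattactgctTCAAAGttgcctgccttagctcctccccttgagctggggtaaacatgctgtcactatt
Abcb1b: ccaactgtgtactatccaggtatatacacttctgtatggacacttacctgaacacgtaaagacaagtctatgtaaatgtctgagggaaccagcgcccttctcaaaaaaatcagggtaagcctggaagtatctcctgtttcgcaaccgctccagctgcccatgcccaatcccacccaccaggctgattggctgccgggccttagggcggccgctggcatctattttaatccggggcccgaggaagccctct
The Abcb1a window held 3 matches, starting 180, 153 and 58 bases before the start, and the Abcb1b window held 0. A further match in Abcb1a lay in the 50 bases after the start. At least 1 match was present in 27.6% of the 32851 RefSeq promoter windows of this length, at least 2 in 5.15% and at least 3 in 0.776%. The Abcb1a window had 40.4% G and C, that of Abcb1b 52.8%, and the median window 52.4%. Of the ABC genes, 38 matched the table with 45 windows, of which 14 held at least 1 match (31.1%) and that of Abcb1a alone held more than 1. A match of 6 letters is a description of the sequence and not a binding site.

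**Figure D4:**
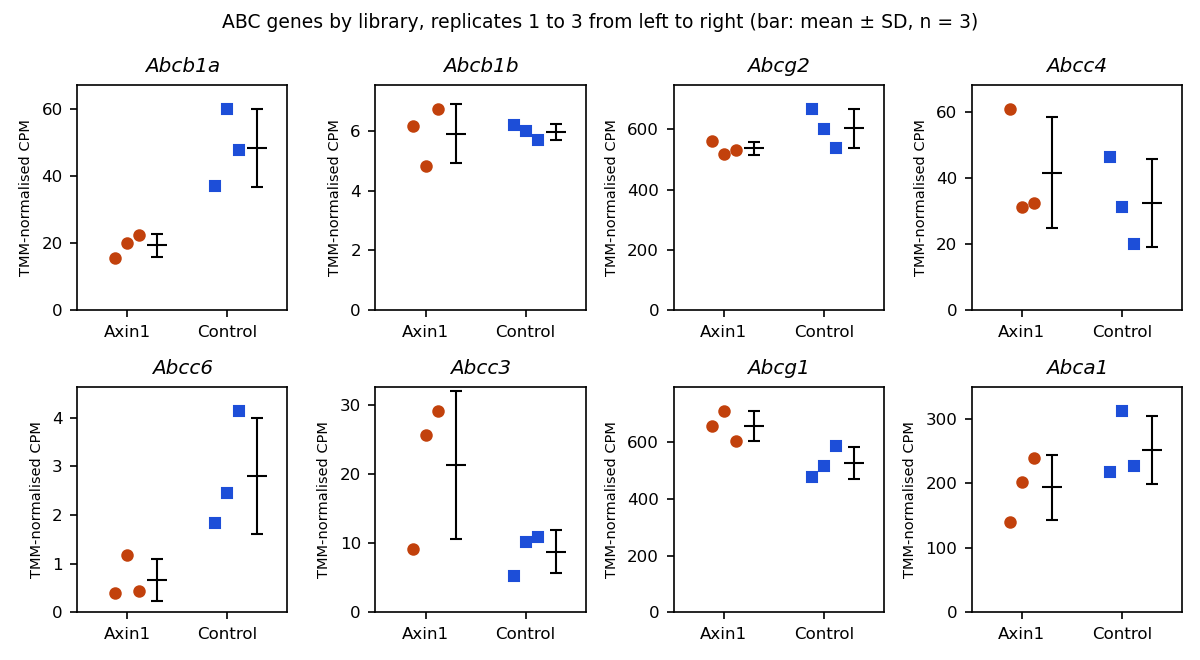
TMM-normalised CPM of 8 ABC genes in the 3 Axin1 overexpression libraries (left in each panel) and 3 controls (right), with points for replicates 1 to 3 and the mean ± SD beside them. The groups separate for Abcb1a, Abcc6 and Abcg1 and overlap for Abcb1b, Abcg2, Abcc4, Abcc3 and Abca1. Abcc6 passed the filter on low counts through the controls only.

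Abcg2 (NM_011920), the most abundant efflux pump, was at 561, 520 and 533 CPM in Axin1 libraries 1, 2 and 3, against 669, 603 and 540 CPM in controls. The groups overlapped, and the log2 fold change of -0.17 (95% confidence interval -0.41 to 0.08, edgeR adjusted p 0.479) had a lower bound well short of the fall of Abcb1a. Within each library there were 0.0279, 0.0383 and 0.0419 Abcb1a reads per Abcg2 read in Axin1 libraries and 0.0553, 0.0994 and 0.0886 in controls. These ratios did not overlap (exact permutation p 0.1, the smallest possible). The ratios of Abcb1a to Abcb1b and to Abcg2 use the same Abcb1a reads, so they are not separate support for its fall. The ratio of Abcg2 to Pecam1 reads was 0.422 to 0.439 in Axin1 libraries and 0.414 to 0.522 in controls, with overlap.

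Abcc4, the multidrug resistance protein that carries cyclic nucleotides and organic anions, was at 61.0, 31.2 and 32.6 CPM in Axin1 libraries and 46.4, 31.1 and 19.9 CPM in controls. Replicate 1 was the highest library of both groups, and the groups overlapped. The log2 fold change was 0.36 with an interval of -0.54 to 1.25 (edgeR adjusted p 0.686), and without Axin1 library 1 it was -0.03. Abcc5, a cyclic nucleotide exporter, averaged 56.4 ± 5.63 CPM in Axin1 libraries and 51.4 ± 3.32 CPM in controls. Abcc1, which exports glutathione conjugates, averaged 34.4 ± 5.30 CPM in Axin1 libraries and 29.7 ± 7.61 CPM in controls. Neither passed the test, at log2 fold changes of 0.13 for Abcc5 and 0.21 for Abcc1 (edgeR adjusted p 0.65 and 0.662), and on the log2(RPKM + 1) scale Abcc5 was at -0.041.

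Abcc6, whose loss in humans causes ectopic mineralisation, was a low-count gene with 5, 17 and 5 reads in Axin1 libraries and 21, 32 and 45 reads in controls. It was at 0.667 ± 0.436 CPM in Axin1 libraries and 2.81 ± 1.19 CPM in controls, and its groups did not overlap. Abcc6 passed the filter on low counts through the controls, with only 1 Axin1 library at the filter's level. A lower level in Axin1 libraries was thus partly built into its entry, and DESeq2 gave it no adjusted p. The log2 fold change of Abcc6, -2.03, was the most negative of the family but had an interval of -3.38 to -0.68 and an edgeR adjusted p of 0.142. Without Axin1 library 2 it was -2.73 (edgeR adjusted p 0.19). Abcc10, a broad-specificity drug exporter, was at 5.51, 5.99 and 8.99 CPM in Axin1 libraries and 4.55, 3.53 and 3.86 CPM in controls. All Axin1 libraries lay above all controls (log2 0.78, edgeR adjusted p 0.243). Abcc2, an exporter of the liver canaliculus, had at most 6 reads in a library.

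Abcc3, a transporter of organic anions and bile acids, was at 9.11, 25.7 and 29.1 CPM in Axin1 libraries 1, 2 and 3 and at 5.25, 10.2 and 10.9 CPM in controls. Axin1 library 1 lay within the control range. The log2 fold change of 1.28 (95% confidence interval 0.17 to 2.38) had an edgeR adjusted p of 0.235, and DESeq2 called it at an adjusted p of 0.0373. The order of the Axin1 libraries was that of the summed macrophage markers, of the megakaryocyte and platelet markers, and of the 8 summed erythroid markers (240, 1253 and 2652 CPM in Axin1 libraries, and 692, 1851 and 3026 CPM in controls). The order of the controls was that of the erythroid markers and not that of the macrophage or platelet markers. The part of these cells in the Abcc3 level was not tested. Without Axin1 library 1, the log2 fold change was 1.64 (edgeR adjusted p 0.0784).

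Among 11 sterol and phospholipid transporters, 7 were tested and 0 passed in edgeR or DESeq2, 2 had an unadjusted edgeR p under 0.05, and the median log2 fold change was -0.10. DESeq2 gave an adjusted p to 5 of the 7. Abcg1 (NM_009593), which delivers cholesterol to lipoprotein particles, was at 656, 710 and 605 CPM in Axin1 libraries 1, 2 and 3 and at 476, 516 and 588 CPM in controls. Every Axin1 library lay above every control, by a narrow margin between Axin1 library 3 and control 3. The means were 657 ± 52.7 CPM in Axin1 libraries and 527 ± 56.4 CPM in controls, with a log2 fold change of 0.32 (95% confidence interval 0.06 to 0.58, edgeR adjusted p 0.213).

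Abca1 (NM_013454), which loads cholesterol and phospholipid onto lipid-poor apolipoproteins and shares with Abcg1 the control by liver X receptors, was at 140, 202 and 240 CPM in Axin1 libraries and 217, 312 and 226 CPM in controls. Its groups overlapped (log2 -0.38, 95% confidence interval -0.89 to 0.14, edgeR adjusted p 0.434). There were 4.70, 3.52 and 2.52 Abcg1 reads per Abca1 read in Axin1 libraries and 2.20, 1.66 and 2.60 in controls, with overlap (exact permutation p 0.2, two-sided). Abca7, a phospholipid transporter linked in humans to Alzheimer's disease risk, was at 10.9, 11.6 and 17.8 CPM in Axin1 libraries and 7.79, 7.90 and 9.56 CPM in controls. The groups did not overlap, and the log2 fold change of 0.67 had an edgeR adjusted p of 0.227.

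Abca3, known for loading lipid into the surfactant bodies of lung cells, was at 52.3, 59.9 and 65.2 CPM in Axin1 libraries and 56.9, 74.6 and 82.3 CPM in controls (log2 -0.27, edgeR adjusted p 0.443). Its count is uncertain because 12.9% of its transcript words match the opposite strand of other annotated genes, most often D330041H03Rik, which also has an entry. The remaining tested members were Abca4, the retinoid lipid transporter of photoreceptors, at 11.6 ± 1.11 CPM in Axin1 libraries and 12.5 ± 1.13 CPM in controls, and the low-count genes Abca2 and Abcb4. The log2 intervals of Abca2 and Abcb4 reached beyond 1 on either side of 0, so changes of that size were not detectable at their depth. Abcg4, Abcg5 and Abcg8 were below the filter.

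Of the Abca5, Abca6, Abca8a, Abca8b and Abca9 gene cluster on chromosome 11, Abca5 and Abca9 were tested, and 0 passed or had an unadjusted edgeR p under 0.05. DESeq2 called 0. Abca9, known from human macrophages as a lipid-responsive gene, was at 3.12, 10.9 and 28.1 CPM in Axin1 libraries and 4.11, 6.52 and 2.02 CPM in controls. Abcg3, a rodent member of subfamily G, was at 3.28, 10.7 and 22.0 CPM in Axin1 libraries and 4.38, 7.13 and 5.33 CPM in controls. For both genes Axin1 library 3 was the highest and Axin1 library 2 the next, and within the controls control 2 was the highest, as for the summed macrophage markers. The order of the Axin1 libraries was also that of the platelet and erythroid markers. The part of these cells in the levels was not tested. Log2 fold changes were 1.72 for Abca9 (edgeR adjusted p 0.357) and 1.09 for Abcg3 (edgeR adjusted p 0.427), and without Axin1 library 3 they were 0.73 and 0.32.

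**Figure D5:**
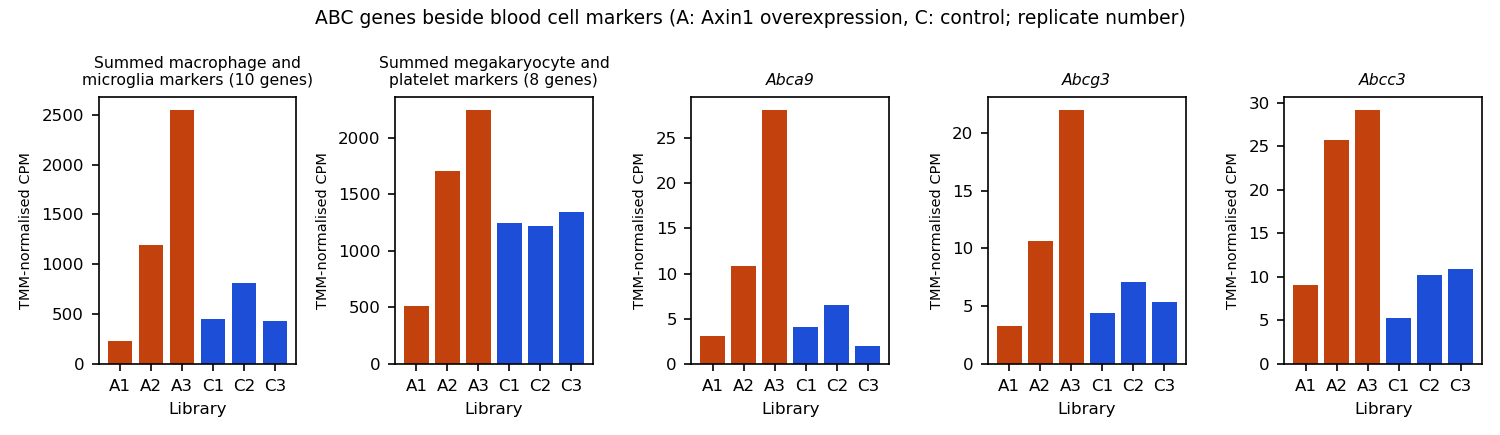
Summed macrophage and microglia markers, summed megakaryocyte and platelet markers, Abca9, Abcg3 and Abcc3 in TMM-normalised CPM, with 1 bar per library (A, Axin1 overexpression; C, control). Axin1 library 3 is the highest in every panel, and Abca9 stands at 28.1 CPM there against 2.02 to 6.52 CPM in the controls.

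ABC transporters of mitochondria, peroxisomes and lysosomes gave 0 calls by edgeR or DESeq2 and 0 unadjusted edgeR p-values under 0.05, with 9 of 9 genes tested. DESeq2 gave an adjusted p to 8 of the 9. Log2 fold changes of the 7 genes described here lay between -0.16 and 0.14. Of the mitochondrial genes, Abcb8 averaged 97.8 ± 11.8 CPM in Axin1 libraries and 106 ± 2.68 CPM in controls. Abcb6, a porphyrin transporter, averaged 20.9 ± 4.78 CPM in Axin1 libraries and 20.7 ± 5.04 CPM in controls. Of its transcript words 91.7% also occur in the annotated gene Gm29253, which has no entry. What this does to the count of Abcb6 was not tested. For Abcb10 9.12% of the words match the opposite strand of other annotated genes, most often Gm45890, which has no entry. Abcb10, which serves haem synthesis in red cell precursors, was at 7.67, 7.71 and 18.9 CPM in Axin1 libraries and 10.9, 9.28 and 17.9 CPM in controls. Replicate 3 was its highest library in both groups, as it was for the summed erythroid markers. Controls 1 and 2 stood in the opposite order to these markers, which were at 692 and 1851 CPM there. The part of erythroid cells in the Abcb10 level was not tested. Of the peroxisomal genes, Abcd3 averaged 73.9 ± 4.32 CPM in Axin1 libraries and 68.4 ± 7.60 CPM in controls. Abcd2, a fatty acid transporter, averaged 19.8 ± 6.22 CPM in Axin1 libraries and 17.9 ± 0.152 CPM in controls. In lysosomes, the cobalamin exporter Abcd4 averaged 19.4 ± 4.77 CPM in Axin1 libraries and 21.1 ± 1.20 CPM in controls, and the peptide transporter Abcb9 averaged 1.38 ± 0.674 CPM in Axin1 libraries and 1.26 ± 0.711 CPM in controls.

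The 4 members that are not transporters gave 0 calls by edgeR or DESeq2 and 0 unadjusted edgeR p-values under 0.05. Abce1, which splits ribosomes for recycling, was at 364, 284 and 272 CPM in Axin1 libraries and 304, 280 and 267 CPM in controls (log2 0.11, 95% confidence interval -0.19 to 0.41). Abcf1, a partner of initiation factor eIF2, was at 256.5, 260 and 252 CPM in Axin1 libraries and 290, 274 and 267 CPM in controls. Its groups did not overlap, but the log2 fold change was only -0.11 (edgeR adjusted p 0.586). Abcf2 was at 222, 178 and 150 CPM in Axin1 libraries and 215, 178 and 203 CPM in controls (log2 -0.12), while Abcf3 averaged 108 ± 9.27 CPM in Axin1 libraries and 121 ± 4.10 CPM in controls (log2 -0.17, groups not overlapping, edgeR adjusted p 0.464). Between 6.17% and 8.94% of the transcript words of Abce1, Abcf1 and Abcf2 also occur in other annotated genes, chiefly Gm6640, Gm8844 and Gm8345, which have no entry.

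Abcc9, the sulfonylurea receptor of vascular ATP-sensitive potassium channels and a known pericyte gene, was at 64.2, 39.3 and 23.4 CPM in Axin1 libraries 1, 2 and 3 and at 24.5, 34.9 and 25.7 CPM in controls. Its groups overlapped (log2 0.58, 95% confidence interval -0.26 to 1.41, edgeR adjusted p 0.461). Of its transcript words 3.32% match the opposite strand of other annotated genes, most often 5330439B14Rik, which has an entry. Kcnj8, the pore subunit that pairs with it, was at 3.04, 2.07 and 1.47 CPM in Axin1 libraries and 3.15, 3.30 and 6.62 CPM in controls. The 10 pericyte and mesenchyme markers summed to 31.2, 88.5 and 73.9 CPM in Axin1 libraries and 21.4, 38.5 and 80.3 CPM in controls. Axin1 library 1 was the highest of its group in Abcc9 and the lowest in these markers, whereas control 1 was the lowest of its group in both. The part of pericytes in the Abcc9 level was not tested. Abcc8, the beta cell receptor of the same kind, had at most 5 reads in a library.

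Genes that work beside ABC transporters were counted from lists of other genes. Of 13 carriers of organic anions and drugs from the solute carrier families, 10 were tested and 0 passed edgeR's test. An unadjusted edgeR p lay under 0.05 for 4 of them, against 17.2% of all tested genes. DESeq2 called 3 of the 10, Slco1c1, Slc22a8 and Slco2b1 (adjusted p 9.63e-07, 0.000373 and 0.0012), against 6.17% of all genes with a DESeq2 adjusted p. Log2 fold changes were negative for 7 and positive for 3, and their median was -0.16. Slco1c1, the thyroxine carrier, was at 1.28, 3.65 and 7.69 CPM in Axin1 libraries and 20.7, 25.3 and 31.8 CPM in controls (log2 -2.63, edgeR adjusted p 0.0981, and -3.37 without Axin1 library 3, adjusted p 0.0632). Slc22a8, the organic anion carrier OAT3, was at 0.32, 1.93 and 3.89 CPM in Axin1 libraries and 8.66, 15.1 and 13.0 CPM in controls (log2 -2.59, edgeR adjusted p 0.139, and -3.40 without Axin1 library 3, adjusted p 0.128). With Axin1 library 1 under the level of the filter on low counts, Slc22a8 reached that level throughout only in controls. A lower level in Axin1 libraries was thus partly built into its entry. Slco2b1 was at 72.1, 106 and 145 CPM in Axin1 libraries and 193, 224 and 207 CPM in controls (log2 -0.95, edgeR adjusted p 0.111). These 3 carriers were named for having the smallest p of the list. For each, every Axin1 library lay below every control, which largely follows from that choice. Of all tested genes 12.4% lay lower without overlap, a share that does not compare with genes chosen by their p.

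Of 18 conjugation and drug metabolism enzymes 16 were tested, 0 passed in edgeR or DESeq2, and 2 had an unadjusted edgeR p under 0.05. DESeq2 gave an adjusted p to 13 of the 16. Log2 fold changes were negative for 12 and positive for 4, with a median of -0.24. The glutathione transferase gene Gstm1 averaged 21.4 ± 1.61 CPM in Axin1 libraries and 30.5 ± 2.28 CPM in controls (log2 -0.51, edgeR adjusted p 0.15). Of 16 nuclear receptors and factors known to control ABC genes 12 were tested, 0 passed in edgeR or DESeq2, 3 had an unadjusted edgeR p under 0.05, and the median was 0.04. Log2 fold changes of this list were negative for 5 and positive for 7. Ahr, the xenobiotic receptor that drives Abcg2 and Cyp1b1, averaged 13.4 ± 2.73 CPM in Axin1 libraries and 21.1 ± 6.50 CPM in controls (log2 -0.66, edgeR adjusted p 0.259). Its groups overlapped. The others with an unadjusted edgeR p under 0.05 were higher in Axin1 libraries. They were Hif1a (log2 0.40, edgeR adjusted p 0.226, groups not overlapping) and Nr3c1 (log2 0.46, edgeR adjusted p 0.276, groups overlapping). Pregnane X receptor (Nr1i2) and constitutive androstane receptor (Nr1i3), the drug sensors that induce P-glycoprotein in adult tissue, were at or below 0.368 CPM in every library.

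Of 19 protein partners of ABC proteins 17 were tested, 0 passed edgeR's test, and 1, Pdia3, had an unadjusted edgeR p under 0.05. DESeq2 called Pdia3 alone (adjusted p 0.031). Pdia3, a partner of the peptide loading complex, averaged 1281 ± 235 CPM in Axin1 libraries and 375 ± 244 CPM in controls (log2 1.77, edgeR adjusted p 0.16), with 656 CPM in control 3. Without control 3 the log2 fold change of Pdia3 was 2.44 (edgeR adjusted p 0.000562), in a fit that called 695 genes against 107 with all libraries. Leaving out any other single library gave Pdia3 edgeR adjusted p-values of 0.24 to 0.363. The ABC genes of that complex carry other symbols. Tap1 was at 6.07, 8.13 and 7.18 CPM in Axin1 libraries and 2.63, 2.30 and 4.78 CPM in controls (log2 1.14, edgeR adjusted p 0.157). Without control 3 its log2 fold change was 1.52 (edgeR adjusted p 0.039), and without any other single library its adjusted p was 0.171 to 0.405. Tap2 had overlapping groups (log2 0.21). Of 10 Wnt and barrier genes, all tested, edgeR called 3 lower (Slc2a1, Apcdd1 and Nkd1) and 1 higher (Axin1, the overexpressed gene). Over all tested genes 0.845% were called. An unadjusted edgeR p lay under 0.05 for 9 of the 10, against 17.2% of all tested genes. DESeq2 called 5 of the 10, against 6.17% of all genes with a DESeq2 adjusted p. Log2 fold changes were negative for 7 and positive for 3, with a median of -1.04. The Wnt target Apcdd1 had a log2 fold change of -2.82 and the glucose transporter Slc2a1 one of -1.30 in the same fit (edgeR adjusted p 0.00461 for both). All 4 edgeR calls were lost without Axin1 library 2 or without control 2.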

How the data were processed

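RNA from sorted CD31+ brain endothelial cells was sequenced in 6 libraries. Aligner and build were Bowtie and mm9, per the submitters' processing notes. How reads were counted, with or without strand and multiple matches, is not given in the sources used here. Both units come from the submitters, and the authors deposited read counts per gene and RPKM per gene and library, per the file headers. Groups came from the sample labels. Counts were fitted over all genes with edgeR 4.0.16 (R 4.3.3): TMM factors, filterByExpr defaults (minimum count 10, minimum total 15), robust quasi-likelihood test, and Benjamini-Hochberg adjustment with a threshold of 0.05. The common biological coefficient of variation was 25.35%. Per-gene levels are TMM-normalised CPM, and genes are compared with each other on RPKM. DESeq2 1.42.0 and limma 3.58.1 served as alternatives. The count fit was run on simulated counts with known fold changes, drawn with the means and spread of these data. That run does not test the calls made here.

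The ABC genes and all lists were chosen with earlier results of these data known. Values in full are given for Abcb1a, Abcb1b, Abcg2, Abcc4, every called gene, the 10 genes with the smallest p and the 5 highest in control RPKM. From each list of other genes, up to 3 with the smallest p could be named; Nkd1 was named because it was called, and Nr1i2 and Nr1i3 for their roles. Shared sequence was counted as 31-base words between transcripts of GENCODE M21. Promoter windows came from RefSeq (GRCm38.p6). No 2 libraries agreed within sampling noise. Of the tested ABC genes, 2 entered all fits and counts but are not reported singly here.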

Additional observations from a re-analysis of the deposited data

How the results depend on the processing

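Abcb1a kept its direction under all 16 alternatives (log2 -1.49 to -1.11) and an adjusted p under 0.05 in 9. It lost the call on log2(RPKM + 1) and log2(RPKM + 0.1) by limma (adjusted p 0.0731 and 0.0739) and without any 1 library other than control 3. Over all genes, edgeR called 62 lower and 45 higher. DESeq2 called 296 lower and 376 higher, and 1 ABC gene higher (Abcc3). No filter on low counts gave 103 lower and 94 higher. Limma with either pseudocount gave 10 lower and 4 higher and 0 ABC genes lower. Leaving out 1 library gave 0 to 182 lower, 0 to 513 higher and 0 to 1 ABC genes lower, with 1733 and 1539 genes at an unadjusted edgeR p under 0.05 in the fits that called 0 (without Axin1 library 2 and without control 2). Library totals without TMM factors, chosen after seeing the data, gave Abcb1a an adjusted p of 0.0481.

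Whether the libraries are paired was not settled. Deviations of same-numbered libraries correlated at 0.23 and 0.15 for replicates 1 and 2, which share title numbers. For replicate 3, which shares none, the correlation was -0.02. Libraries of different number correlated at -0.25 to 0.17. The replicate block over 6 libraries called 105 genes, kept Abcb1a (adjusted p 0.0287), called Slco1c1 (adjusted p 0.0448), and turned the log2 fold change of Abca5 to 0.0043. The replicate block over the 4 libraries that share title numbers called 531 lower and 969 higher, with 2 ABC genes lower (Abcb1a and Abca1, adjusted p 0.00116 for Abca1) and 2 higher (Abcc3 and Abcg1, adjusted p 0.011 and 0.00541). It also called Pdia3, Tap1, Ahr, Slco1c1, Slco2b1 and Slc22a8. That fit reversed the log2 fold changes of Abca2 (0.64), Abca5 (0.30), Abcd2 (-0.12), Abcf2 (0.019) and Tap2 (-0.19). The log2 fold change of Abcc5 was -0.041 on log2(RPKM + 1) and -0.0434 on log2(RPKM + 0.1). The cause of these changes was not tested.

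Leaving out 1 library also turned the sign of log2 fold changes near 0: Abca2 ran from -0.89 to 0.31, Abca5 from -0.53 to 0.28, Abcb10 from -0.72 to 0.16, Abcb1b from -0.12 to 0.11, Abcb4 from -0.20 to 0.62, Abcb6 from -0.17 to 0.19 and Abcb9 from -0.33 to 0.62. Abcc4 ran from -0.0296 to 0.70, Abcd2 from -0.10 to 0.35, Abcd4 from -0.34 to 0.0017, Abce1 from -0.0303 to 0.19, Abcf2 from -0.28 to 0.0088 and Tap2 from -0.0075 to 0.49. With 3 libraries per group, genes of few reads such as Abcc6, Abcb4 and Abcb9 have intervals wider than 2 log2 units.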
